A study of Mus musculus with 8 samples.

Results

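The cells described here are endothelial cells of the mouse mesentery, the sheet of tissue that carries vessels to the gut, compared between a high fat diet and normal chow. They were 7312 of the 12181 mesenteric barcodes, in a series of 27944 barcodes. A barcode was kept if it had at least 500 UMIs (unique molecular identifiers, each tagging a captured RNA molecule), at least 300 genes and at most 10% of its UMIs from mitochondrial genes. It also had to hold a UMI of at least 2 of the 4 endothelial genes Pecam1, Cdh5, Cldn5 and Egfl7, and none of the leukocyte gene Ptprc or the adipocyte gene Adipoq. The mice were male and ROSA26-eYFP+/+ Cdh5-CreERT2+, so that tamoxifen gave a lasting YFP label to cells with Cdh5 promoter activity, and YFP-positive cells were sorted. All groups shared this genotype and ate a tamoxifen diet for 2 weeks, begun at 6 weeks of age. At 8 weeks of age, some mice went on to normal chow with 5.8% fat and the others to a high fat diet with 60% fat, which both lasted 12 to 13 weeks. Each library pooled the tissue of 6 mice and the whole experiment was repeated, as runs A and B, so each diet has 2 pools of mice. Endothelial cells of epididymal adipose tissue from the same design, chosen by the same rule (8067 cells), enter the fits and the last comparison. How the YFP gate was set is not given here. Nothing in the labels limits the Cdh5 driver to a vessel type, so all endothelium of the tissue could carry the label.

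The label of endothelium rests on the markers that chose the cells, which are given as a description only. Cldn5, a tight junction protein, had a UMI in 72.9 to 89.2% of the cells of a library, Cdh5 in 73.4 to 95.5%, Pecam1 in 80.8 to 92.6% and Egfl7 in 89.6 to 94.3%. In run A, 1223 cells were kept on chow and 668 on high fat diet. In run B, 3055 and 2366 cells were kept. Cells with exactly 2 of the 4 markers, just inside the rule, were 10.9% and 13.9% of these cells in run A and 9.72% and 6.21% in run B. Cells that met every other condition with 1 marker, just outside it, numbered 88 and 60 in run A and 269 and 94 in run B. The bar on Adipoq removed more cells in some libraries than in others: of barcodes with at least 2 markers, 0.0804% on chow and 0% on high fat diet held Adipoq in run A, and 24.1% and 6.65% in run B. The median cell had 3866 UMIs on chow and 3124 on high fat diet in run A, and 3605 and 4435.5 in run B.

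As background, endothelial cells line all vessels and control what leaves the blood. In capillaries GPIHBP1 holds lipoprotein lipase at the vessel wall, the lipase frees fatty acids from lipoproteins, and CD36, FABP4 and FABP5 take them up and carry them, partly under the control of PPARG. Endothelial cells also sense compounds of food and blood through the aryl hydrocarbon receptor, which binds the core GCGTG of xenobiotic response elements and switches on Cyp1a1. Lymphatic vessels of the mesentery carry tissue fluid and dietary lipid, and lymph nodes within the mesentery have specialised endothelium of their own.

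The upstream sequences of Cyp1a1, which fell most, and of Ucp2, which rose, are shown because they hold the receptor core in different number. Each is the 250 bases before the transcript start that the RefSeq promoter table uses (build GRCm38.p6), 5′ to 3′ on the strand of the gene, with GCGTG or its reverse complement CACGC in capitals.
Cyp1a1: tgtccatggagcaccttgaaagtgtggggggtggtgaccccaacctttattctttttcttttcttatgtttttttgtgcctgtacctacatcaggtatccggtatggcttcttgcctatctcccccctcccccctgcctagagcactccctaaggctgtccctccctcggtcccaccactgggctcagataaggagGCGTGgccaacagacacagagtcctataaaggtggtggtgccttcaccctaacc
Ucp2: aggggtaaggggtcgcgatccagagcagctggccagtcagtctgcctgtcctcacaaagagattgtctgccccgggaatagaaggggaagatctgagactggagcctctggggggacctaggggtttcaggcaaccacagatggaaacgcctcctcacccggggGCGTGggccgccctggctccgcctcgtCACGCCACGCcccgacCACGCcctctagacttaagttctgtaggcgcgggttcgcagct
The Cyp1a1 window is chr9:57697363-57697612, plus strand, and holds 1 core, 54 bases before that start. It lies within the gene's RefSeq span (57687928 to 57703824), which begins further upstream. The Ucp2 window is chr7:100493108-100493357, plus strand, and holds 4 cores, of which 1 is within the longer form TNGCGTG. Its last bases overlap the gene's RefSeq span (100493337 to 100499629). Over both strands, 28.2% of the 32851 windows of this length in the RefSeq table held GCGTG or CACGC and 4.1% held TNGCGTG or its reverse complement. Of the genes that passed the test below in all cells and had a window in the table, 12 of 27 lower genes and 9 of 20 higher genes held the core. The 28.2% covers all windows and not the genes tested. The share over the genes tested was not counted, so nothing is drawn from these counts. A match describes the letters only and is not evidence of binding.

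The cells did not have the same make-up in every library. Venous cells took a smaller share on high fat diet in either run, whereas the capillary and lymphatic shares differed more between runs than between diets. Classes were made by counting, in each cell, how many of 6 markers of arterial, capillary, venous and lymphatic endothelium had a UMI. A cell joined a class with at least 2 of its markers and more than of any other class. The venous share was 47.8% on chow and 12.4% on high fat diet in run A (exact 95% binomial intervals 44.9 to 50.6% and 10.0 to 15.2%), and 22.8% and 9.26% in run B (21.3 to 24.3% and 8.12 to 10.5%). The chow and high fat libraries did not overlap for this class. The lymphatic share was 27.9% and 57.9% in run A but 12.6% and 4.56% in run B, so it was higher on high fat diet in run A and lower in run B. Capillary cells were 3.84% and 4.34% of run A, only 47 and 29 cells, against 32.1% and 62.8% of run B. The arterial share was the steadiest of the classes, at 13.7%, 15.1%, 18.0% and 13.0% in chow A, high fat A, chow B and high fat B. Intervals cover counting error only, and shares were not tested because there are 2 pools a group.

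These classes are ranges of a marker count, not types. Cells with exactly 2 markers of their class were 4.69 to 8.38% of the cells of a library, and 36.6 to 52.2% had at least 2 markers of more than 1 class. The median arterial cell held 0 to 4 UMIs of the capillary markers and 1 to 2 of the venous ones in the 4 libraries, against 8 to 23 of its own. A median venous cell held 0 to 1 of the capillary and 1 to 2 of the arterial markers against 18 to 26 of its own. Lymphatic cells held a median of 2 to 7 capillary and 2 to 5 venous marker UMIs against 46.5 to 244.5 of their own.

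Genes of lymph node endothelium marked a part of these cells, which was far smaller on high fat diet in run B and about equal on both diets in run A. The list, added after the data were seen, has 8 genes: Glycam1, Madcam1, Chst4 and Fut7 of the high endothelial venules through which lymphocytes enter nodes, and Marco, Clec4g, Msr1 and Ackr4 of node lymphatics. Cells with a UMI of any of them were 18.2% on chow and 19.8% on high fat diet in run A, and 22.9% and 2.41% in run B. In adipose cells chosen by the same rule the share was 0.416 to 1.49%. With each cell thinned to 1000 UMIs the mesenteric shares were 12.8%, 10.97%, 17.5% and 1.20% in the order chow A, high fat A, chow B and high fat B. Within the lymphatic class both high fat libraries had the smaller share of their run, 24.9% against 15.8% and 57.0% against 4.63%. The same held for capillary cells, at 34.0% against 20.7% and 9.68% against 1.21%. In venous and arterial cells the runs went opposite ways: the venous share was 12.5% on chow and 34.9% on high fat diet in run A but 21.95% and 10.0% in run B, and the arterial share 6.55% and 16.8% but 5.81% and 0.649%. The class comparisons below are therefore also given without these cells, and whether nodes were part of the dissected tissue is not stated in the labels.

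**Figure D1:**
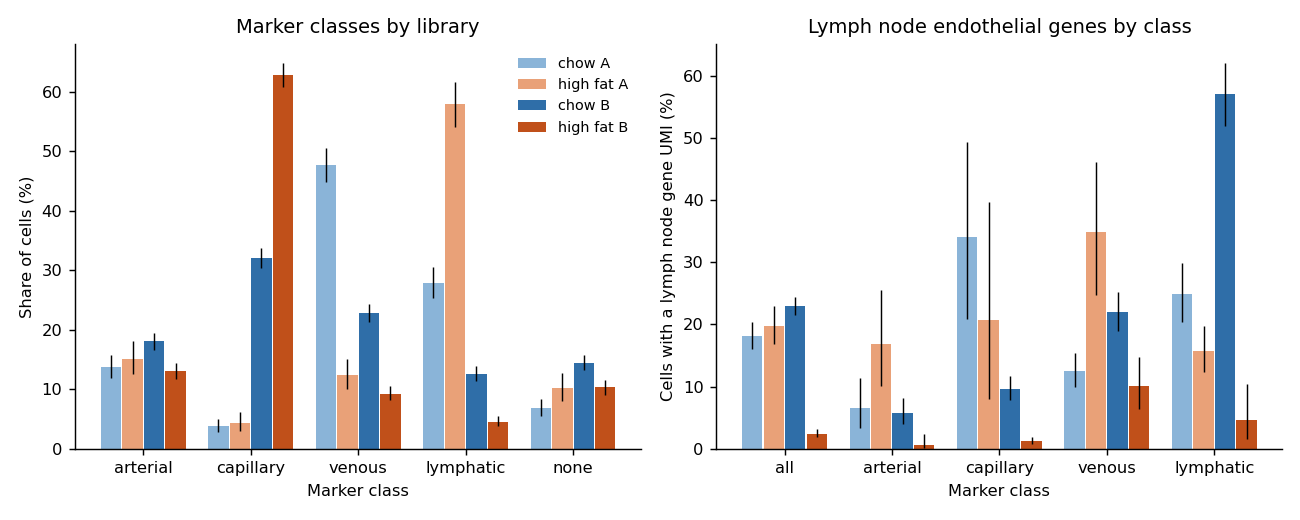
Share of mesenteric endothelial cells in each marker class (left, % of cells, with cells in no class at the right of the panel) and share of each class with a UMI of 1 of the 8 lymph node genes (right, %), 1 bar a library with exact 95% binomial intervals. The venous bars drop from chow to high fat diet in each run (47.8% to 12.4% and 22.8% to 9.26%), and the lymphatic bars move in opposite directions.

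The first question was what high fat diet changed in mesenteric endothelium as a whole. Summed over all cells of a library, the cytochrome P450 gene Cyp1a1 was almost lost on high fat diet, and Cyp26b1, which degrades retinoic acid, Mgp, an inhibitor of calcification, and the growth factor gene Csf1 fell by more than 2 on the log2 scale. Genes of lipid supply and of the basement membrane were among those that rose, with Gpihbp1, Pparg, Ucp2 and Col4a2 each higher on high fat diet in both runs. In all, 60 of 13362 genes passed an edgeR adjusted p of 0.05 with the run as a block (0.449% of the genes tested), 27 higher (0.202%) and 33 lower (0.247%). In the same table, 10.3% of genes were higher and 13.1% lower in both high fat libraries than in both chow libraries, and 53.1% had the same sign in runs A and B. In edgeR the 60 calls rest on the block: without it edgeR called no gene (0%, with 391 under an unadjusted p of 0.05). DESeq2 without the block called 6 genes, of which 5 were among the 60. The calls also need the adipose libraries and the high fat library of run B, since the 4 mesenteric libraries alone gave 0 calls (867 under an unadjusted p of 0.05) and the fit without high fat B gave 0 (1060). Without chow A, high fat A or chow B the counts were 736, 116 and 321. Cells are not replicates. With the block, a p-value here measures the spread between pools that is left once the run difference is taken out, shared over the mesenteric and adipose libraries. It does not measure the full spread between mesenteric pools.

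Cyp1a1, which encodes an enzyme that oxidises aromatic compounds, was at 53.6 CPM (UMIs per 1000000, with library sizes scaled by TMM) on chow and 0 on high fat diet in run A, and at 68.2 and 0.727 CPM in run B. Both high fat libraries were thus near 0 and far below both chow libraries. Behind these values stood 250 and 1021 UMIs on chow against 0 and 10 on high fat diet. The log2 change was -7.12 ± 1.01 (SE), with an edgeR adjusted p of 0.0469. In adipose endothelium the log2 change was -7.29, with an edgeR adjusted p of 0.575, and the difference between the tissues did not pass the test. Of 4 other target genes of the same receptor, a list added after the data were seen, none passed in all cells: the log2 change was -2.99 for Cyp1b1 (edgeR adjusted p 0.189), -2.41 for the receptor's repressor Ahrr (0.432), -0.84 for Nqo1 (0.0952) and -0.44 for Tiparp (0.465). Without cells with lymph node genes Cyp1b1 passed (-2.55, edgeR adjusted p 0.0222). In each run all 4 stood lower on high fat diet, so Cyp1a1 differed from them in size and not in sign.

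Mgp was the most abundant of the genes that fell, at 6626 CPM on chow and 2046 on high fat diet in run A and 2958 and 511 CPM in run B. Both high fat libraries lay below both chow libraries. Its log2 change was -2.15 ± 0.32 (edgeR adjusted p 0.0486), and it was -1.69 within run A and -2.53 within run B. Cyp26b1 went from 135 to 27.8 CPM in run A and from 236 to 20.4 CPM in run B, a log2 change of -2.99 ± 0.35. Csf1, the growth factor of macrophages, went from 174 to 51.1 and from 203 to 36.7 CPM, and the 2 chow libraries were close to each other (188 ± 20.2 CPM, SD, n = 2 pools). Myof, which encodes the membrane repair protein myoferlin, had the smallest adjusted p of the named falls (0.0266 with edgeR), with 364 and 252 CPM on chow against 70.4 and 64.7 CPM on high fat diet. It was called in no vessel class on its own, as given below.

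Falls included genes of vessel signalling with named roles. Slco2a1, the prostaglandin transporter, was at 883 and 286 CPM on chow against 171 and 86.5 CPM on high fat diet in runs A and B, and Procr, the endothelial protein C receptor of the anticoagulant pathway, at 314 and 151 against 103 and 49.2 CPM. Their log2 changes were -2.02 ± 0.26 and -1.61 ± 0.19, and in each gene both high fat libraries were the lowest. Pla2g4a, which frees arachidonic acid from membranes, had a log2 change of -2.61, and the lysophospholipid enzyme gene Lpcat2 one of -2.29. Growth and hormone genes that fell were Pdgfc (-3.28) and Pthlh (-2.19). The kinase gene Ptk2b, the secreted factors Cytl1 and Ccdc3 and the protease inhibitor Reck changed by -2.08, -2.09, -2.07 and -1.998. The immediate early gene Ier3 went from 1937 to 597 CPM in run A and from 59.5 to 18.8 CPM in run B, so the runs differed by far more than the diets, while the log2 change was -1.70 in run A and -1.65 in run B.

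Chga, H19, Ptx3 and Scn3a had the 4 largest rises among the named genes. Chga, a granule protein of secretory cells, had 0 UMIs on chow A and 1 on chow B against 18 and 214 on high fat diet. With both runs summed, the ratio of high fat to chow was 281, with a 95% counting interval of 49.9 to 11129. The edgeR adjusted p was 0.0393. H19, an imprinted non-coding RNA, was at 1.07 and 0.468 CPM on chow and at 33.8 and 14.8 CPM on high fat diet in runs A and B. Ptx3, a secreted pattern recognition protein, went from 8.57 to 73.2 and from 0.668 to 11.4 CPM, and the sodium channel gene Scn3a from 20.4 to 222 and from 6.08 to 48.4 CPM. In each of the 4, both high fat libraries exceeded both chow libraries, but the run A and run B libraries of a diet were several-fold apart for Ptx3 and Scn3a.

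Genes of the vessel wall and of lipid supply also rose. Col4a2, a basement membrane collagen chain, was at 86.6 CPM on chow and 251 on high fat diet in run A and at 251 and 911 CPM in run B, so the groups overlapped although each run showed the rise (log2 change 1.71 ± 0.18, edgeR adjusted p 0.034). The endothelin receptor gene Ednrb went from 49.5 to 191 and from 80.2 to 237 CPM, with no overlap (1.76 ± 0.22). Ucp2, a mitochondrial carrier, went from 54.8 to 189 and from 81.8 to 221 CPM, again with no overlap (1.61 ± 0.19). Gpihbp1 was at 145 and 462 CPM in run A and 798 and 1989 CPM in run B (1.49 ± 0.21; 1.24 with an edgeR adjusted p of 0.062 without cells with lymph node genes), and Pparg at 5.57 and 15.3 and at 39.9 and 103 CPM (1.39 ± 0.18). For these, chow B lay above high fat A, so the change appears only within the runs. Pgf, a growth factor of the VEGF family, rose by 2.19 on the log2 scale with the run A libraries above those of run B. Prrg3, Rnf152, Abcc9, Adam19 and the adenosine receptor gene Adora2a rose by 1.77 to 2.18.

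**Figure D2:**
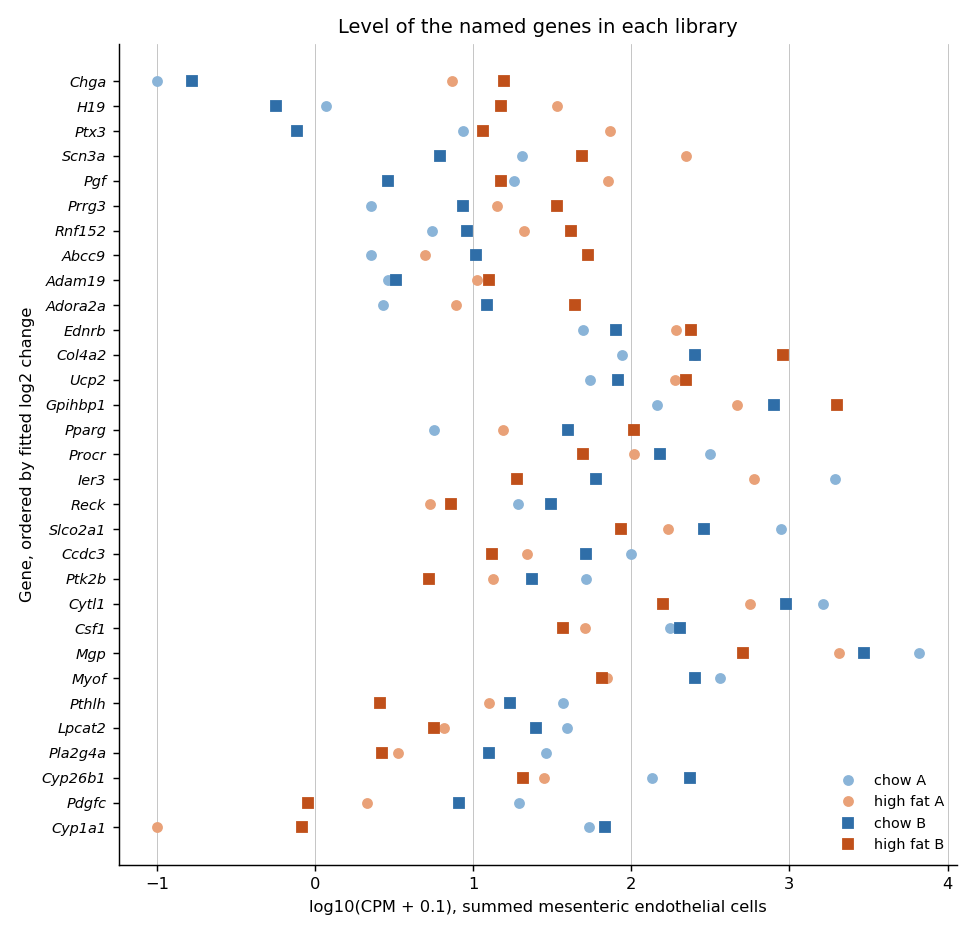
Level of the 31 named genes in each mesenteric library, as log10(CPM + 0.1) on the horizontal axis, with circles for run A, squares for run B, blue for chow and orange for high fat diet. In Cyp1a1 both orange points lie left of both blue points, whereas in Gpihbp1 and Pparg blue squares lie right of orange circles.

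All 60 genes moved the same way in runs A and B. The plot of the run A change against the run B change places Chga at 5.02 and 5.73, H19 at 4.71 and 4.43, and Cyp1a1 at -7.87 and -6.16. A shared sign follows from how the block test chooses genes and is no separate support. Among the 60 were 2 genes of other cell types, named after their values were seen. Cfd, an adipocyte gene, was lower on high fat diet (log2 change -5.34) and C1qb, a macrophage gene, higher (3.28). Beside them, the summed level of 10 adipocyte markers was 19.4 and 7.96 CPM in run A and 583 and 121 in run B (chow first), and that of 12 macrophage and dendritic markers 90.1 and 242, and 66.5 and 121. In either run the summed adipocyte markers were thus lower and the summed macrophage markers higher on high fat diet. The macrophage sum was mostly Spp1 and Mrc1 in run A, Spp1 at 40.4 and 142 CPM and Mrc1 at 35.0 and 80.8, while Mrc1 went the other way in run B, from 33.8 to 10.1 CPM, and Fcer1g and Ccl6 were lower on high fat diet in run A. C1qa, C1qb, C1qc and Lyz2 were each higher in CPM on high fat diet in both runs, at 0.398 to 1.59 CPM in high fat A and 8.50 to 28.3 CPM in high fat B. In run A they stood on only 1 to 6 UMIs each on chow and 1 to 4 on high fat diet, too few to show a direction there. The part of both lists in the other calls was not tested.

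**Figure D3:**
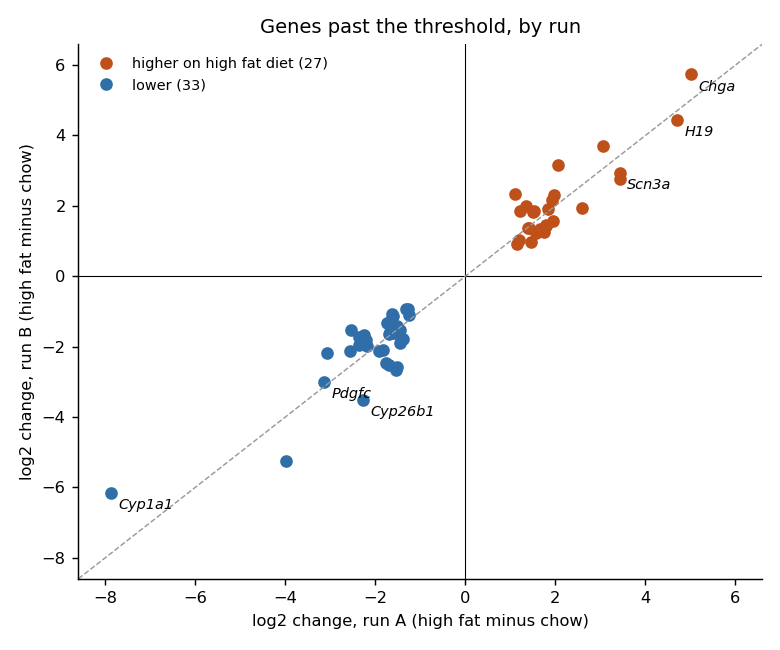
log2 change (high fat minus chow) of the 60 genes past the threshold in run A (horizontal axis) and run B (vertical axis), with orange points for the 27 higher and blue points for the 33 lower genes and a dashed line where both runs are equal. All points lie in the lower left or upper right of the plot, from Cyp1a1 at -7.87 and -6.16 to Chga at 5.02 and 5.73.

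Pathway lists showed little in the sum of all cells. Over 28 lists with 391 genes, chosen with earlier results of these data known, no list had more than 1 member past the threshold in all cells. In the fatty acid list only Gpihbp1 of 18 genes tested rose, with a list median of 0.31 on the log2 scale, -0.18 in run A and 0.73 in run B, against -0.03 over all genes tested. Leukocyte adhesion genes had a median of -1.67 with 0 of 9 called: Vcam1 was at 1591 and 248 CPM on chow against 229 and 102 CPM on high fat diet (log2 change -2.07, edgeR adjusted p 0.0625), and Icam1 at 1258 and 111 against 385 and 48.6 CPM (-1.48, 0.0558). Within classes the median of this list was -0.92 in arterial, -0.40 in capillary, -0.13 in venous and -1.59 in lymphatic cells. Without cells with lymph node genes these medians were -0.95, -0.20, -0.13 and -0.33. The 7 MHC class II genes tested had a median of -0.86, the 23 interferon-stimulated genes -0.09, and the 22 nuclear genes of oxidative phosphorylation 0.09, with 0 called in each. A sum over all cells does not separate a shift between vessel classes from a change within them, and fewer cells of a class and less RNA per cell cannot be told apart in it.

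The next question was which vessel class carried the changes. Of the 60 genes, 48 were also called in the same direction in at least 1 class when cells of that class alone were summed, 29 of the 49 tested in arterial cells, 21 of 49 in lymphatic cells, 13 of 50 in capillary cells and 5 of 50 in venous cells. The classes share the sort, the pools and the libraries, so these counts are not independent of the first. Of the named genes, the falls Myof, Pdgfc, Ptk2b and Ccdc3 and the rises Prrg3 and Adam19 were called in no class where they were tested. Myof had log2 changes of -0.99 in arterial, -0.72 in capillary and -0.89 in venous cells, against -2.16 in all cells. Chga belonged to capillary cells, which held 18 of its 18 UMIs on high fat diet in run A and 212 of 214 in run B. H19 belonged to lymphatic cells, with 83 of 84 and 204 of 204 UMIs, as did Scn3a, with 547 of 552 and 635 of 665. Arterial cells held 16222 and 32300 of the 30927 and 44284 Mgp UMIs on chow in runs A and B.

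Arterial cells showed a rise of genes for fatty acid uptake and handling. Numbering 168 and 101 cells in run A and 551 and 308 in run B (chow first), they had 241 of 9420 genes past the threshold (2.56%), 129 higher (1.37%) and 112 lower (1.19%). In the fatty acid list 7 of 16 genes tested rose and 0 fell, with a median of 0.90 against -0.01 over all genes tested. Without the block edgeR called none in arterial cells (0%, 256 under an unadjusted p of 0.05), although the list median was then 0.92. The calls were 35 without high fat B and 101 without chow B, and 3 and 4 of the fatty acid genes then still passed.

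Fabp4, the fatty acid binding protein of capillaries and fat cells, was at 1319 CPM on chow and 3958 on high fat diet in arterial cells of run A and at 6335 and 19085 CPM in run B. Each run showed about the same rise (log2 change 1.59 ± 0.19, edgeR adjusted p 5.89e-05), while run B lay above run A on either diet. Cd36, the fatty acid translocase, went from 118 to 365 and from 784 to 2377 CPM (1.61 ± 0.19, adjusted p 3.26e-05 with edgeR), and Fabp5 from 38.9 to 181 and from 146 to 433 CPM (1.76 ± 0.23). All 3 were called whichever mesenteric library was left out, with Cd36 between 1.57 and 1.70. Angptl4, an inhibitor of lipoprotein lipase, went from 2.99 to 12.9 and from 9.08 to 111 CPM (3.39 ± 0.44), but stood on 4 UMIs in high fat A and was not called without high fat B. Gpihbp1 (1.59), the glycerol channel gene Aqp7 (1.47) and the lipid droplet gene Plin2 (1.07) also rose. Lpl had 0, 1, 74 and 129 UMIs in chow A, high fat A, chow B and high fat B, and its log2 change of 1.37 did not pass (edgeR adjusted p 0.159).

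Some genes that control lipid transport rose in the same cells. Rbp7, a retinol binding protein gene that PPARG controls in endothelium, went from 59.8 to 255 CPM in run A and from 287 to 1710 CPM in run B in arterial cells (2.40 ± 0.21, edgeR adjusted p 1.97e-06). It was called whichever library was left out. Of 8 listed regulators of lipid transport, Pparg (1.83) and the homeobox factor Meox2 (1.36) rose, and both were not called without chow B or without high fat B. Ucp2 rose by 1.90 and was called in each of those fits. In the same cells the summed level of 6 capillary markers, which the class rule used, was 225 and 360 CPM in run A and 497 and 1222 in run B, chow first, and that of 10 mural cell markers 112 and 290, and 379 and 1203. Both were higher on high fat diet in each run, and their part in the rise of the fatty acid genes was not tested. Adipocyte markers went the other way, from 25.4 to 12.2 and from 147 to 34.0 CPM.

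Arterial falls were led by a matrix gene. Mgp was at 24251 and 9459 CPM in run A and 12217 and 2839 CPM in run B (-1.73 ± 0.17, edgeR adjusted p 4.66e-06). Both high fat libraries lay below both chow libraries, and Mgp was called whichever library was left out. Cyp26b1 fell by 3.07, the serpin Serpina1e by 2.87, Hey2, a Notch target of arteries, by 1.36, Bmp4 by 1.13 and the adhesion molecule Vcam1 by 1.19 on the log2 scale. Cyp26b1 and Hey2 were not called without chow B or without high fat B. Others named by the rule were Col4a4, Perp and Cadm1, which fell by 3.64, 3.12 and 2.61 but had 0 to 7 UMIs in a high fat library.

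The FOXO target Depp1 (43.4 and 439 CPM in run A, 29.5 and 139 CPM in run B, log2 change 2.67 ± 0.26) rose in arterial cells and was called whichever library was left out. Tmem252 (2.08), Ccn3 (2.54) and Vcan (2.21) rose too. Cxcl10, a chemokine induced by interferon, had 15 and 8 UMIs on chow against 42 and 169 on high fat diet in runs A and B (3.85 ± 0.52), and was not called without high fat B. Cxcl9 had 2, 1, 7 and 251 UMIs in chow A, high fat A, chow B and high fat B, so its rise rests on high fat B. Of 6 MHC class II genes tested, Cd74, H2-Aa, H2-Eb1 and H2-DMb1 rose, with Cd74 at 20.9 and 25.8 CPM in run A and 48.4 and 181 CPM in run B (1.61 ± 0.29). None of these 4 was called without chow B or without high fat B. Macrophage and dendritic markers in arterial cells were at 5.35 and 48.8 CPM in run A and 11.6 and 39.2 in run B, higher on high fat diet in both, and their part was not tested. Leaving out cells with lymph node genes kept 235 of the 241 arterial calls and all 7 fatty acid and 4 class II calls.

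Capillary cells showed part of the same pattern. They had 160 of 10666 genes past the threshold (1.5%), 38 higher (0.356%) and 122 lower (1.14%). In run A these values rest on 47 and 29 cells, and the count was 0 without high fat B (250 under an unadjusted p of 0.05) and 0 without the block (198), and 26 without chow B. Fabp5 went from 400 to 1068 CPM in run A and from 1236 to 3275 CPM in run B (1.41 ± 0.28, edgeR adjusted p 0.000528), and Angptl4 from 81.3 to 183 and from 106 to 392 CPM (1.68 ± 0.32). Both rises appear within the runs and were not called without chow B or high fat B. Fabp4 (0.97, edgeR adjusted p 0.0283) was not called once cells with lymph node genes were left out (0.61). Gpihbp1, Cd36 and Lpl had log2 changes of 0.18, 0.86 and 0.20 and did not pass. Fabp4 was not called either when any 1 mesenteric library was left out. Thus 3 of 17 fatty acid genes rose in capillary cells and 0 fell, but 0 passed without chow B or without high fat B. Without cells with lymph node genes 2 rose and 1, Dgat2 of triglyceride synthesis, fell. The difference from arterial cells was not tested.

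The falls of capillary cells were deep but moved with the lymph node genes. Cyp1b1, a relative of Cyp1a1, had 44 and 204 UMIs on chow against 0 and 0 on high fat diet, with an edgeR adjusted p of 2.5e-13. With both runs summed it was at least 179-fold lower (floor of 3 UMIs over the 2 libraries). Such a bound mostly reflects run B, where the class held 3648195 and 8443666 UMIs (chow first), against 159388 and 88917 in run A. No bound is given for run A alone. Cyp1b1 was not tested once cells with lymph node genes were removed. Cyp1a1 had 1 and 472 UMIs on chow against 0 and 2 on high fat diet. With both runs summed, the ratio of chow to high fat was 512, with a 95% counting interval of 141 to 4243. That ratio rests on run B, since run A held only 1 UMI. Cyp1a1 passed with and without cells with lymph node genes. By the same bound over summed runs, Clec4g, one of the lymph node genes, was at least 71.5-fold lower and Ptn, a secreted growth factor, at least 69.3-fold lower. The summed lymph node genes were at 897 and 78.7 CPM in run A and 486 and 3.32 in run B in this class. Without the cells that hold them, 69 of the 160 calls remained, among them Igfbp3, an IGF binding protein, which went from 757 to 205 and from 376 to 76.9 CPM (-2.14, and -2.36 without those cells).

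Venous cells had fewer changed genes than the other classes with all libraries in the fit. In these cells 11 of 9757 genes passed (0.113%), 7 higher (0.0717%) and 4 lower (0.041%), and 0 without the block (130 under an unadjusted p of 0.05). Leaving out 1 library gave 19 to 55 calls, the most without high fat A. Angptl4 went from 10.3 to 248 CPM in run A and from 5.67 to 97.4 CPM in run B (4.35 ± 0.46, edgeR adjusted p 0.00161), the largest rise of the gene in any class. Both high fat libraries were far above both chow libraries, and it was called whichever library was left out. Rbp7, named after its value was seen because it stood on 6 UMIs in high fat A, rose from 2.29 to 16.7 and from 7.15 to 40.4 CPM (2.57 ± 0.36). Tcim, Adamts9, Rflnb and Col4a2 rose by 1.62 to 1.70. Without cells that hold lymph node genes Col4a2 had a log2 change of 1.81 and was not called (edgeR adjusted p 0.0774). Cyp1a1 fell from 91.8 to 0 and from 98.3 to 5.05 CPM (-4.82 ± 0.70), and the soluble guanylate cyclase gene Gucy1a1, which encodes a receptor for nitric oxide, by 1.30. Marco, one of the lymph node genes, had 215 and 296 UMIs on chow against 0 and 0 on high fat diet, at least 44.5-fold lower with both runs summed. The 8 lymph node genes together did not move one way in venous cells: their sum was 1236 and 11267 CPM in run A and 9376 and 2585 in run B. The sum of the 6 lymphatic markers likewise went from 1102 to 4738 and from 3898 to 420 CPM, and the part of either in the venous calls was not tested.

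Several genes were called in more than 1 class. Cyp26b1 fell in arterial (-3.07), capillary (-3.21) and lymphatic cells (-3.85) and had a log2 change of -1.87 in venous cells (edgeR adjusted p 0.298). Mgp fell in arterial cells (-1.73). In capillary cells it was called at -2.43 but rests on 2 UMIs in high fat A, and leaving out a library moved it from -4.90 (without high fat B) to 1.06 (without chow B), neither of which passed. In venous cells it was at 4991 and 3720 CPM in run A and 2182 and 1025 CPM in run B and did not pass (-0.75). Ednrb rose in arterial and lymphatic cells by 1.74 and 1.77. Of the basement membrane list, Col18a1 rose in arterial (1.41) and capillary cells (1.82), and Col4a2 in arterial, venous and lymphatic cells (1.05, 1.68 and 1.70). Differences between classes were not tested.

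**Figure D4:**
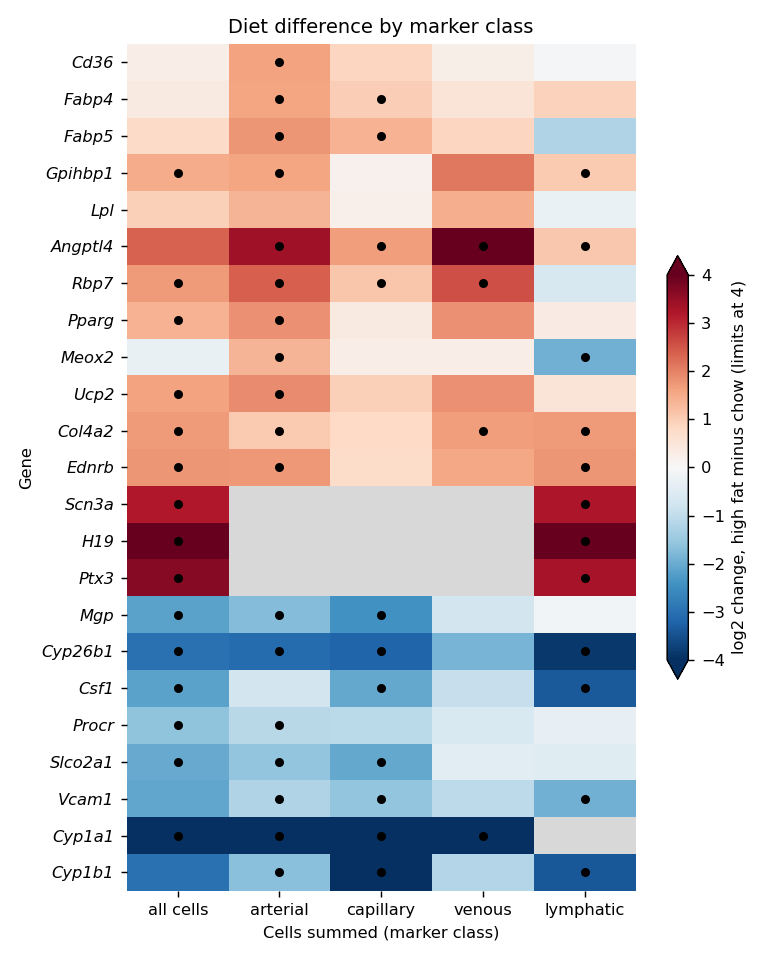
log2 change (high fat minus chow, colour, limited at 4 in either direction) of 23 genes in all mesenteric endothelial cells and in the 4 marker classes, with a dot where the edgeR adjusted p with the run block was under 0.05 and grey where a gene was not tested. Cd36, Fabp4 and Fabp5 are dotted in arterial cells (1.61, 1.59 and 1.76), and Angptl4 is dotted in all 4 classes.

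Lymphatic cells had 450 of 9167 genes past the threshold (4.91%), 147 higher (1.6%) and 303 lower (3.31%). Without cells with lymph node genes there were 225, against 276 in arterial cells. On high fat diet they rest on 387 cells in run A and 108 in run B, and without the block the count was 0 (747 under an unadjusted p of 0.05). It was 89 without high fat B, 276 without chow B and 836 without chow A. H19 was at 5.201 and 57.5 CPM in run A and 3.06 and 271 CPM in run B (5.44 ± 0.57, edgeR adjusted p 0.000399), and Scn3a at 97.8 and 379 and at 37.6 and 842 CPM (3.24 ± 0.47). Fn1, the matrix protein fibronectin, was at 126 and 544 and at 104 and 651 CPM (2.39 ± 0.23), and Angpt2, a growth factor of lymphatic vessels, at 117 and 289 and at 28.4 and 309 CPM (2.25 ± 0.40). In all 4 genes both high fat libraries exceeded both chow libraries. H19, Scn3a and Fn1 were called whichever library was left out, and Ptx3 (3.29), Neo1 (3.86), Gpnmb (3.79), Tagln3 (3.60), Serinc2 (3.43) and Dixdc1 (3.32) rose too.

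Genes of MHC class I antigen presentation and of cholesterol fell in the lymphatic class, but most of these calls were lost once cells with lymph node genes left the sum. Of 15 MHC class I genes tested, 8 fell, among them B2m, the shared light chain (1980 and 774 CPM in run A, 3703 and 1540 CPM in run B, log2 change -1.31 ± 0.27), H2-K1 (-1.18) and H2-Q7 (-1.90). Of 16 cholesterol genes 4 fell, among them Idi1 and Msmo1 of the synthesis pathway. The list medians were -1.18 and -0.74, against -0.01 over all genes tested. Without high fat B, 1 class I and 2 cholesterol genes still passed, and without high fat A 3 and 3. Without cells that hold lymph node genes the medians were 0.08 and 0.64, H2-T23 alone of the class I genes was lower (-1.06), and no cholesterol gene was, while Fdps was higher. B2m, H2-K1 and H2-Q7 then stood at 0.07, 0.26 and 0.82. Of 5 MHC class II genes tested 0 passed, with a median of 0.80. Without those cells 3 of 4, Cd74, H2-Ab1 and H2-Eb1, were higher, with a median of 2.41. In this class the lymph node genes were at 2294 and 914 CPM in run A and 3780 and 68.1 in run B.

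Several rises of the lymphatic class also passed without these cells. Without them the log2 change was 4.17 for H19, 2.19 for Scn3a, 2.58 for Fn1, 1.76 for Angpt2 and 2.28 for Ptx3, and each still passed, though Angpt2 and Ptx3 were not called without high fat B. Gpnmb did not (2.53, edgeR adjusted p 0.0852). Angptl4 rose by 1.07 with and 2.42 without them, and Icam1 had log2 changes of -1.46 and -1.4955. Over the whole class 77 of the 450 calls remained, and 299 of the 347 that could be tested kept their direction. Pla2g7, Hs3st3b1, Art2b, Robo1, Cyp27a1 and Tmem132e, the largest falls of the class (from -5.205 to -4.62 on the log2 scale), were too low for the test once the cells were removed. Macrophage markers in lymphatic cells were at 300 and 279 CPM in run A and 236 and 413 in run B, with no shared direction.

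**Figure D5:**
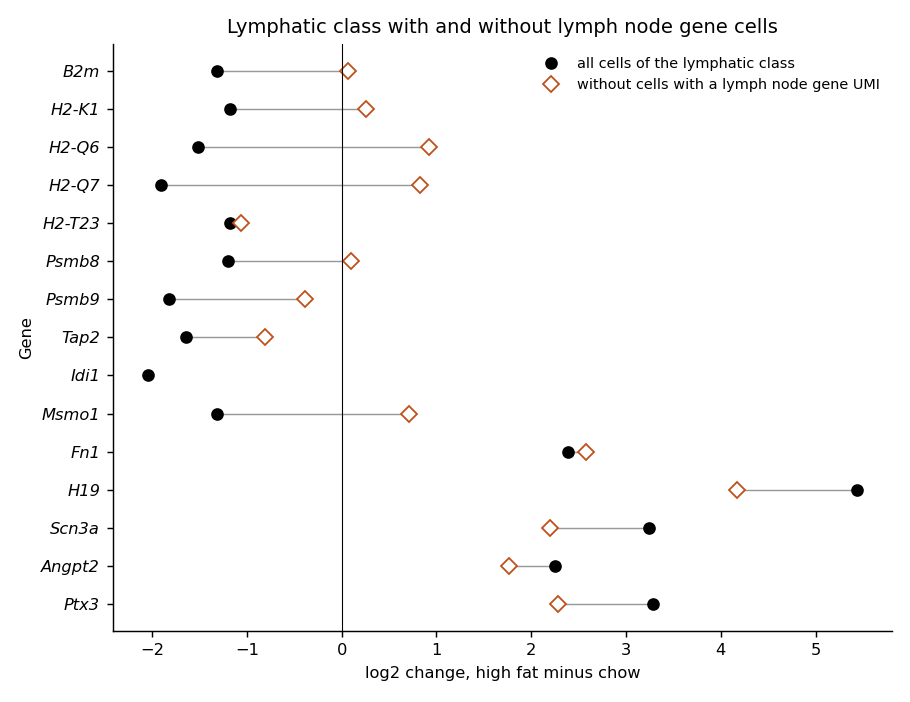
log2 change (high fat minus chow, horizontal axis) of MHC class I, cholesterol and other genes in the lymphatic class, with all its cells (black points) and without cells that hold a lymph node gene UMI (orange diamonds, absent where a gene was not tested). B2m moves from -1.31 to 0.07 and H2-Q7 from -1.90 to 0.82, while Fn1 stays at 2.39 and 2.58.

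The last question was whether these changes were particular to the mesentery. In the sum of all cells the test of the difference between mesentery and adipose called 0 of 13362 genes (0%), while 572 had an unadjusted p under 0.05. DESeq2 called 15 and limma-voom 0. By edgeR and limma-voom, none of the 60 calls is therefore shown to differ from adipose. Whether the 15 genes of DESeq2 include any of the 60 is not given here. Of the 60, 57 had the same sign in adipose endothelium, where 1, Cfd, was called. The share of all genes tested with the same sign in both tissues was not counted, so nothing is drawn from the 57. The median change of the 27 higher genes was 1.71 in mesentery and 0.28 in adipose, and that of the 33 lower genes -1.98 and -0.58, but they were chosen for their change in mesentery. Among the 6 genes with the smallest p for the difference were Tifa, Myof, Pgf, Scgb3a1 and Adam19, each with an edgeR adjusted p of 0.676. Pgf changed by 2.19 in mesentery and 0.36 in adipose, and Myof by -2.16 and -0.59.

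Within classes a few genes differed between the tissues: 9 in arterial cells (0.0955%), 26 in capillary cells (0.244%), 0 in venous cells (0%) and 13 in lymphatic cells (0.142%). Without the block each count was 0. Leaving out 1 mesenteric library gave 1 to 51 genes in arterial cells (1 without chow B and 2 without high fat B), 0 to 36 in capillary cells (0 without high fat B), 0 to 11 in venous cells and 1 to 321 in lymphatic cells (1 without high fat B). Of the 9 arterial genes 4 belong to other cell types, the haemoglobin genes Hbb-bs, Hba-a1 and Hba-a2 and the fibroblast gene Mfap5. In arterial cells Aebp1, a matrix gene, fell in mesentery (-1.95) and had a log2 change of 0.96 in adipose, a difference that passed with and without cells that hold lymph node genes. The fatty acid genes were not among those past this test: Cd36 changed by 1.61 in mesenteric and 1.21 in adipose arterial cells, Fabp4 by 1.59 and 0.91, and Rbp7 by 2.40 and 1.36, with edgeR adjusted p of at least 0.406 for the difference. The fall of Cyp1a1 was called in adipose as well: in adipose capillary cells Cyp1a1 had a log2 change of -9.90 (edgeR adjusted p 9.07e-12). In capillary cells the class II gene Cd74 had a change of -1.55 in mesentery and 3.64 in adipose, a difference that passed with (edgeR adjusted p 2.44e-07) and without cells with lymph node genes. Each side rests on 1 run. The mesenteric change did not pass (edgeR adjusted p 0.0708), with 71 and 2 UMIs in run A (chow first) but 86.3 and 83.1 CPM in run B. Adipose capillary cells held 0 and 1 UMIs in run A and 54 and 1010 in run B. In lymphatic cells Fbln2, a matrix protein, rose by 3.00 in mesentery against 0.19 in adipose, and the difference passed in both settings. Neither this difference nor that of any other of the 13 lymphatic genes was called when high fat B was left out.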

How the data were processed

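Single-cell RNA libraries (10x Genomics) were analysed from the matrices the authors deposited. These hold UMI counts, made with Cell Ranger 3.0.2 for run A and 5.0.0 for run B per the file headers, with the build mm10 and Seurat 4.3.0 per the submitters' processing notes. The counting annotation is not stated, and only the 30406 gene identifiers that both runs share were used. The members and gene lists were chosen with earlier results of these data known.

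Counts of the kept cells were summed for each library, from 2515843 to 14326264 UMIs in mesentery, and tested with edgeR 4.0.16 (quasi-likelihood, TMM, filterByExpr, R 4.3.3) over all 8 libraries with 4 group means and the run as a block, adjusted by Benjamini-Hochberg over all genes tested. The runs are repeats of the experiment per the labels' protocols, and same-run libraries deviated together (correlations 0.581 to 0.753 over 6 pairs of groups). DESeq2 1.42.0 and limma-voom (limma 3.58.1) were alternatives. No doublet caller was run. Cells above the 95th percentile of UMIs were left out as an alternative. Mesenteric libraries shared at most 1 barcode. Marker sums are CPM without TMM scaling.

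Named genes passed the threshold with the same direction in both runs, at least 10 UMIs in each library of the higher group and a mean of at least 10 CPM there. The 12 largest rises and 12 largest falls (6 in a class) were taken, plus called members of the gene lists. A few genes that met this rule are not reported here. Genes that chose the cells and genes of other cell types were left out. For the difference between tissues the 6 smallest p-values were taken, in classes with a minimum of UMIs added after seeing the data.

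On simulated counts of 13362 genes, the test of all cells recovered 13 of 67 genes changed 2-fold (19.4%). It recovered 57 of 67 changed 4-fold (85.1%) and 59 of 66 changed 8-fold (89.4%), while 13162 genes were left unchanged. Of the test's 150 calls, 21 were false, a larger share than the adjusted p threshold is meant to allow. Changes were planted only in genes above a minimum mean count, and counts were drawn from a fit of the same form as the test. The rates therefore do not cover genes of few UMIs, or run differences that vary with diet.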

Additional observations from a re-analysis of the deposited data

Results flagged for a closer look

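Some genes changed differently with diet in mesentery and in adipose within a class, by the test of the difference itself (edgeR with the run block). Each difference is the mesenteric log2 change minus the adipose one, and each rests on 2 pools in each of 4 groups. In arterial cells the difference was -2.91 for Aebp1 (edgeR adjusted p 0.00842) and -5.15 for Timp1, an inhibitor of matrix proteases (0.0408). Timp1 had a change of 3.85 in adipose and -1.30 in mesentery, where it did not pass (edgeR adjusted p 0.659). In chow A, high fat A, chow B and high fat B it had 11, 2, 10 and 3 UMIs in mesentery and 1, 11, 3 and 39 in adipose.

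In capillary cells it was -3.79 for Clu, -5.19 for Cd74, -5.84 for the complement gene C3, -3.88 for its inhibitor Cd55, -4.33 for Maf and -3.24 for Vcam1, with edgeR adjusted p from 1.11e-07 to 0.000361. Clu, C3, Cd55 and Maf moved in mesentery (-3.61, -5.11, -4.13 and -4.18) and had changes from -0.25 to 0.73 in adipose. Cd74 and Vcam1 had changes of opposite sign in the tissues. For Cd74 the mesenteric fall appeared in run A only and did not pass, and the adipose rise rests on run B.

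In lymphatic cells the difference was -3.92 for the matrix gene Tnc, -2.92 for the cytokine receptor gene Lifr, -3.44 for H2-Q7, 3.38 for Olfml2a and 2.81 for Fbln2, each with an edgeR adjusted p of 0.0438. None of the capillary and lymphatic differences given here was called when high fat B was left out. Of the flagged genes, Aebp1, Cd74 and Fbln2 passed again without cells that hold lymph node genes (-2.91, -4.48 and 1.90). The others did not: the difference was then -4.88 for Timp1 (edgeR adjusted p 0.0537), 2.86 for Olfml2a (0.147), -2.48 for Vcam1, -1.67 for Clu, -0.37 for Cd55, -0.44 for Maf, -0.54 for Tnc, -0.27 for Lifr and -0.76 for H2-Q7, and C3 was too low to be tested.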

How the results depend on the processing

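Without the replicate block the count of changed genes was 0 in all cells and 0 in arterial, capillary, venous and lymphatic cells. For all cells (60 with the block) it was 0 from the mesenteric libraries alone, 327 with DESeq2, 6 with DESeq2 and no block, 187 without the filter on low counts, 111 without the cells of most UMIs and 153 without cells with lymph node genes. Leaving out 1 mesenteric library gave 0 (without high fat B) to 736 (without chow A) calls, 116 without high fat A and 321 without chow B. The 60 genes kept their direction in each of these fits. Of the 31 genes named in all cells, 30 passed with DESeq2, 24 with limma-voom, 11 without lymphatic cells, 18 without venous cells, and 31, 19, 27 and 0 without chow A, high fat A, chow B and high fat B. With the 4 classes at equal weight, 41 of the 43 of the 60 that could be tested kept their direction, and 11 of the 60 passed. By class, leaving out a library gave 35 to 310 calls in arterial, 0 to 192 in capillary, 19 to 55 in venous and 89 to 836 in lymphatic cells. Without cells with lymph node genes the counts were 276, 83, 18 and 225 in arterial, capillary, venous and lymphatic cells. For the difference between tissues, DESeq2 gave 15 calls and leaving out a library 0 to 44. The cause of these differences was not tested. Leaving out cells with lymph node genes or the venous class, and DESeq2 without the block, were chosen after seeing the data.

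With cells thinned to 1000 UMIs, the arterial share was 7.95%, 10.97%, 13.9% and 12.4% in chow A, high fat A, chow B and high fat B, the venous share 42.4%, 10.0%, 19.4% and 7.93%, the lymphatic share 24.2%, 53.4%, 10.3% and 4.52%, and the capillary share 2.88%, 4.08%, 28.2% and 55.6%. Run A holds few capillary cells, 47 and 29.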
